A study of Mus musculus with 9 samples.

Results

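The Ifi200 genes Ifi202b, Ifi203, Ifi204, Ifi205 and Aim2 were followed in endothelial cells (ECs) sorted from mouse lungs with and without breast cancer metastases. The 5 genes were chosen by symbol, and the family was chosen because Ifi202b was among the largest increases in ECs of metastatic lungs given IgG over ECs of healthy lungs given IgG. Of these 5 genes, 4 had a probe set of their own among the 18193 genes measured, and Ifi205 was represented only on probe sets that it shared with neighbouring genes. In all, 10 of 45037 probe sets named a chosen gene, 4 of them alone and 6 together with other genes.

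Proteins of the Ifi200 (HIN-200) family are induced by interferons and bind DNA through HIN domains, and most carry a pyrin domain that lets them assemble with other pyrin proteins. AIM2 senses double-stranded DNA in the cytosol and builds an inflammasome with the adaptor ASC, encoded by Pycard, and caspase-1. The mouse protein p202, encoded by Ifi202b, has HIN domains without a pyrin domain and is known to restrain AIM2. The product of Ifi204, p204, is a mouse relative of human IFI16, which signals through STING to the interferon genes.

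The study asked how the transcriptome of lung ECs changes with metastasis and how much of that change depends on VEGF signaling. All mice were NSG animals of 6 to 8 weeks, an immunodeficient strain on a NOD background that lacks mature lymphocytes but keeps myeloid cells. The 3 groups, with 3 arrays each, were metastatic lungs given DC101, an antibody that blocks mouse VEGFR2, metastatic lungs given control rat IgG, and healthy lungs given the same IgG. Human breast cancer cells of the MDA-MB-231-LM2 line, selected for growth in lungs, had been injected intravenously, the time point is labelled 3 weeks, and DC101 was given at 40 mg per kg on days 21 and 24, before harvest on day 25. Per the paper, metastatic mice were picked for similar lung tumor load by bioluminescence, so the DC101 and IgG mice were not an unselected sample. ECs came from whole digested lungs by flow sorting on CD31 after removal of cells with hematopoietic, epithelial, fibroblast or cancer cell markers, so vessels in and outside nodules were pooled. RNA was measured on Affymetrix Mouse Genome 430 2.0 arrays, and values are log2 expression after robust multiarray averaging (RMA). The labels call the arrays biological replicates, without stating how many mice each one held, and a p-value here reflects the spread among these arrays, which may be technical in part.

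The 12 pan-endothelial markers had a summed level (log2 of the sum) of 17.17 to 17.28 in DC101 arrays, 17.22 to 17.24 in metastatic IgG arrays and 17.30 to 17.32 in healthy arrays. Single markers went in different directions: Emcn was called higher in metastatic IgG than in healthy lungs (0.53, adjusted p = 0.034; 3.93% of all genes were called higher), while Tek (-0.36), Eng (-0.31) and Cldn5 (-0.17) lay below healthy lungs without passing the test. Arrays of 1 group correlated at 0.983 to 0.991 over the 18193 genes, each with 1 probe set. The probe sets for the 3′ and 5′ ends of Gapdh, a measure of RNA integrity, differed by 0.35 to 0.60 on the log2 scale in DC101 arrays, by 0.47 to 0.57 in metastatic IgG arrays and by 0.69 to 0.77 in healthy arrays. The RNA of healthy lungs thus stood apart from both metastatic groups in this measure, and its part in the differences from healthy lungs was not tested. In bulk RNA, more cells expressing a gene and more RNA per cell cannot be told apart.

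All 5 genes lie in 1 cluster on chromosome 1 of the GRCm38.p6 assembly, between positions 173349547 and 174031755 (682.2 kb). Genes of the family were looked up by symbol, and the 14 found are called the cluster genes here. Other genes annotated in this span were not counted. The order was Aim2, Ifi206, Ifi214, Ifi213, Ifi209, Ifi208, Ifi207, Ifi204, the pseudogene Ifi203-ps, Mndal, Ifi211, Ifi203, Ifi202b and Ifi205. The genes are close relatives, and probe sets in such a cluster can hybridise to several of them.

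RefSeq promoters (GRCm38.p6, 250 bases before and 50 after each start) were matched for 12 of the cluster genes. The upstream 250 bases of 4 chosen genes are shown because they differ in the response elements through which interferon-activated factors bind DNA. They are those of the reference strain, C57BL/6J, and the NSG sequence was not examined. Capitals mark the core of an interferon-stimulated response element, GAAANNGAAA on either strand, and in Ifi202b a gamma-activated sequence, TTCNNNGAA. The stretches are chr1:173982845-173983094 for Ifi202b, chr1:173942493-173942742 for Ifi203 and chr1:174031756-174032005 for Ifi205, all on the minus strand, and chr1:173420354-173420603 for Aim2 on the plus strand.
Ifi202b: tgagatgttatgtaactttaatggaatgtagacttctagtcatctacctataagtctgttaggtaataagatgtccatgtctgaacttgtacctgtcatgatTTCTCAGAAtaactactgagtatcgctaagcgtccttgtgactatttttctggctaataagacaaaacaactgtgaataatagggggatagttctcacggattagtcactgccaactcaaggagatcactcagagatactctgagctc
Ifi203: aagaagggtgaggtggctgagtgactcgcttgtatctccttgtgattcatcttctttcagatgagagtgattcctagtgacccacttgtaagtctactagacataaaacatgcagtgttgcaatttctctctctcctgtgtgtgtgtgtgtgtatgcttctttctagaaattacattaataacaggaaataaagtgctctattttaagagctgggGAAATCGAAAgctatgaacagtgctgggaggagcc
Ifi205: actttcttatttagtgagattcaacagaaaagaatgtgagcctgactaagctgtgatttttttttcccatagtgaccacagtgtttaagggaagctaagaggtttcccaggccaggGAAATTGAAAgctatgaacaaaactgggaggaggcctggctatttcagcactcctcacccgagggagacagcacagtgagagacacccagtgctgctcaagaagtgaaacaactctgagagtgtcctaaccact
Aim2: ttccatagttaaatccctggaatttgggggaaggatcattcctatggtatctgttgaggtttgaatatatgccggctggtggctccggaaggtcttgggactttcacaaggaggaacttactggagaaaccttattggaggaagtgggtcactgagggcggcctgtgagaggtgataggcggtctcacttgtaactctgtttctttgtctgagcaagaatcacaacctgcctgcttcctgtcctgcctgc

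The response element core was present in 10 of the 14 promoters of these 12 genes, or in 9 of the genes, against 3.44% of all 32851 RefSeq promoters. It was absent from the 300 bases of Ifi202b, Aim2 and Ifi209. The core lay 35 to 26 bases before the start of Ifi203 in the promoter shown, and the other of its 2 RefSeq promoters held none. It lay 134 to 125 bases before the start of Ifi205, which held a further match after its start. The gamma-activated sequence was found in 1 of the 12 genes, Ifi202b, from 148 to 140 bases before the start, and in 8.3% of all promoters. A match of letters describes the window and says nothing on binding. Around the core, 30 bases of 5 genes are shown because the flanks repeat between neighbours.
Ifi203: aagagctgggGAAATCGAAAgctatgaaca
Mndal: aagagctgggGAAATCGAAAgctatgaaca
Ifi205: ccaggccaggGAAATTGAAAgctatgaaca
Ifi211: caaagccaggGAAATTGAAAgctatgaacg
Ifi206: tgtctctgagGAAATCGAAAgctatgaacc
The windows of Ifi203 and Mndal were identical. The one shown is from 1 of 2 Mndal promoters, and the other held a core of TTTCTCTTTC with unlike flanks. The windows of Ifi205 and Ifi211 shared the core GAAATTGAAA.

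Ifi202b was high in ECs of both metastatic groups. Its log2 expression was 11.25, 12.24 and 11.79 in the DC101 arrays, 11.81, 12.09 and 12.21 in the metastatic IgG arrays, and 8.44, 8.51 and 8.02 in the healthy arrays. All 6 metastatic arrays stood above the 3 healthy ones, and the DC101 and IgG arrays overlapped. The metastatic IgG mean of 12.04 ± 0.21 exceeded the healthy mean of 8.32 ± 0.27 (SD, n = 3 each) by 3.72 on the log2 scale, or 13.1-fold. This difference, which chose the family and carries no test, was the fifth among 18193 genes, behind Mycn, Akr1b8, Nusap1 and Mki67, with Cenpf next at 3.67. With DC101 the mean was 11.76 ± 0.50 (SD, n = 3), which was 3.44 above healthy lungs, or 10.8-fold.

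A second Ifi202b probe set, which also names a second, unnamed locus, showed the same separation on a lower scale. It read 10.30, 11.21 and 10.71 in DC101 arrays, 10.61, 11.05 and 11.17 in metastatic IgG arrays, and 7.73, 7.38 and 7.09 in healthy arrays. The mean differences from healthy lungs were 3.54 for metastatic IgG and 3.33 for DC101. Both Ifi202b probe sets are of a type that can bind transcripts of several related genes, so other sequences of the cluster may add to these values.

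Ifi204, the DNA sensor gene related to IFI16, followed at a smaller difference. It measured 7.96, 8.89 and 8.15 in DC101 arrays, 8.40, 8.63 and 8.93 in metastatic IgG arrays, and 6.55, 6.59 and 6.66 in healthy arrays. Every metastatic array was above every healthy array, and the healthy values lay below the first quartile of all probe sets (7.07 to 7.08). The mean was 2.06 higher in metastatic IgG than in healthy lungs and 1.73 higher in DC101 than in healthy lungs. These are differences of measured signal, since the healthy signal was not shown to exceed background. A probe set that Ifi204 shares with Ifi205, Ifi211 and Mndal differed less. It gave 9.96, 10.49 and 10.71 in DC101 arrays, 10.54, 10.89 and 11.04 in metastatic IgG arrays and 10.04, 9.91 and 10.02 in healthy arrays, so the DC101 arrays reached into the healthy range. The differences from healthy lungs on that probe set were 0.83 for metastatic IgG and 0.39 for DC101.

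**Figure D1:**
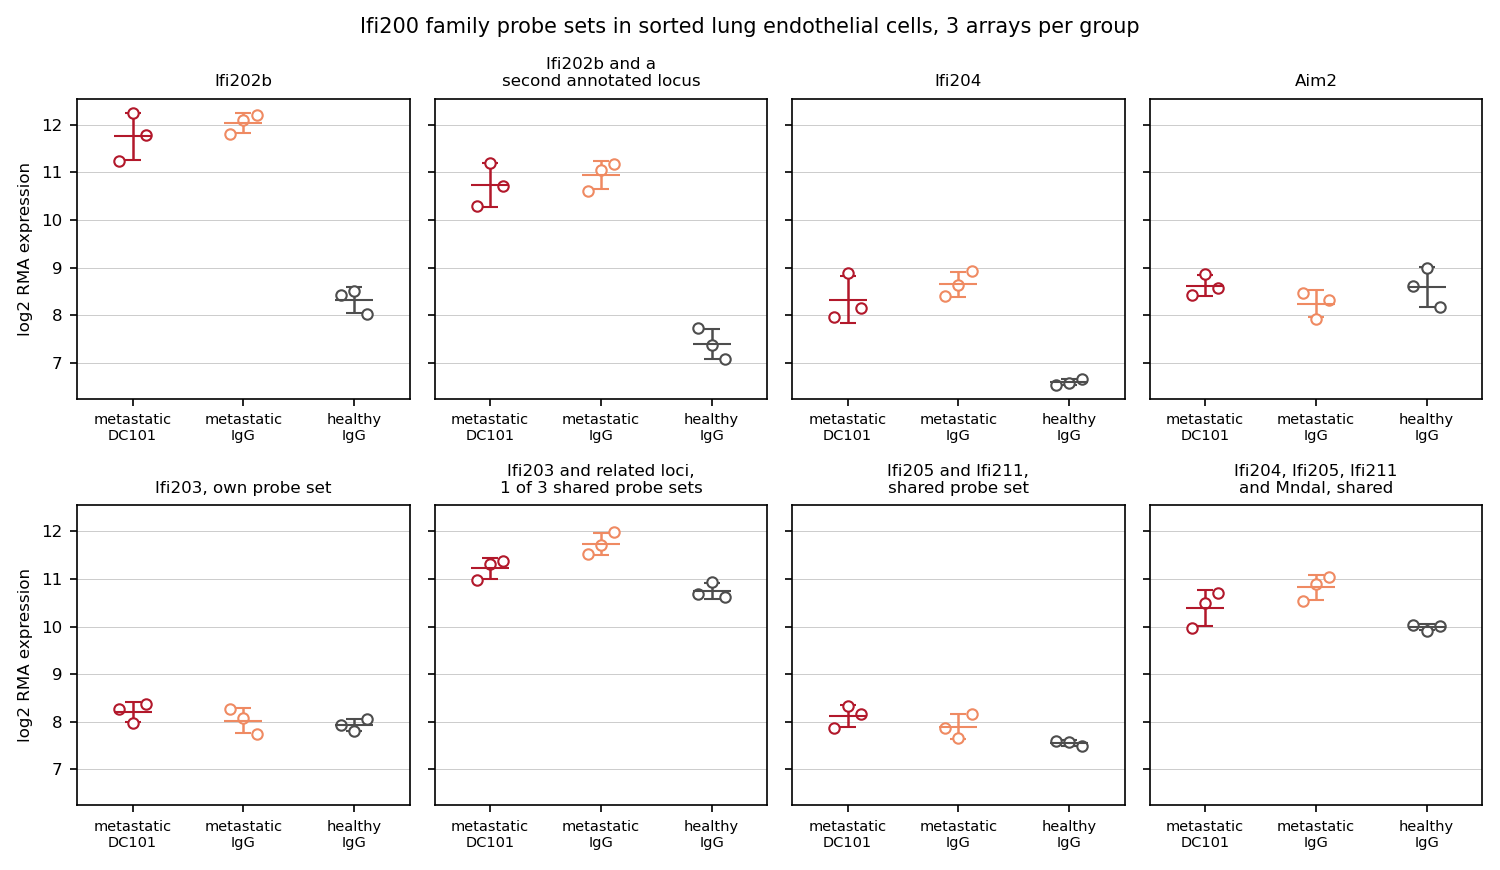
Log2 RMA expression (y axis) of 8 Ifi200 family probe sets in metastatic DC101, metastatic IgG and healthy IgG lung ECs (x axis); circles are arrays, long bars group means and whiskers 1 SD (n = 3 each). The metastatic arrays of Ifi202b sit between 11.25 and 12.24 and its healthy arrays between 8.02 and 8.51, while the Aim2 groups overlap.

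Ifi203, an interferon-inducible HIN-200 gene with a pyrin domain, was read differently by its own probe set and by those it shares with Ifi203-ps and unnamed loci. The probe set of Ifi203 alone gave 8.27, 7.98 and 8.37 in DC101 arrays, 8.26, 8.07 and 7.74 in metastatic IgG arrays, and 7.93, 7.81 and 8.06 in healthy arrays. These groups overlapped, with differences from healthy lungs of 0.09 for metastatic IgG and 0.27 for DC101. On 1 shared probe set the values were 10.98, 11.31 and 11.37 in DC101 arrays, 11.52, 11.70 and 11.98 in metastatic IgG arrays and 10.68, 10.93 and 10.61 in healthy arrays. Here the groups did not overlap, and the differences from healthy lungs were 0.99 for metastatic IgG and 0.48 for DC101. A second shared probe set gave differences of 1.18 for metastatic IgG and 0.93 for DC101, and the third, the brightest, 0.71 for metastatic IgG and 0.48 for DC101. Which transcripts produced the signal of the shared probe sets cannot be told from these arrays.

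For Ifi205, reported in mouse macrophages to regulate ASC, the narrowest probe set was shared with Ifi211. It measured 7.87, 8.33 and 8.17 in DC101 arrays, 7.86, 7.67 and 8.17 in metastatic IgG arrays, and 7.60, 7.58 and 7.50 in healthy arrays. The 6 metastatic arrays were all above the healthy ones, by 0.34 on average with IgG and 0.57 with DC101.

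Aim2, the inflammasome sensor itself, did not share the pattern of Ifi202b. Its values were 8.43, 8.87 and 8.57 in DC101 arrays, 8.48, 7.92 and 8.32 in metastatic IgG arrays, and 8.61, 9.0 and 8.17 in healthy arrays. The 3 groups overlapped, and the mean differences from healthy lungs were -0.35 for metastatic IgG and 0.03 for DC101.

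By the fit over all genes, Ifi202b and Ifi204 were the 2 chosen genes called higher in metastatic IgG than in healthy lungs, where 3.93% of all 18193 genes were. The same 2 genes were called higher in DC101 than in healthy lungs, against 1.58% of all genes. Nothing is read from these counts, since the choice of the family used the same arrays, and both comparisons share the healthy arrays. The Ifi204 call in the DC101 comparison was lost, with 1 gene called, without any 1 of the 3 healthy arrays.

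Among all 17 probe sets of the cluster, 15 were on average higher in metastatic IgG than in healthy lungs, and 11 of them without overlap (13.0% of all genes). A call was reached by 6, against 2.31% of the 45037 probe sets. Between DC101 and healthy lungs 16 of 17 were higher, 7 without overlap (9.44% of all genes) and 3 called, against 0.795% of probe sets. Nothing is read from these counts, since both Ifi202b probe sets, which carry the difference that chose the family, are among those called. The 17 probe sets are not independent, because neighbouring genes share sequence. Their spread was wide, as only the Ifi202b probe sets and the probe set of Ifi204 alone exceeded a log2 difference of 1.5 in either comparison.

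**Figure D2:**
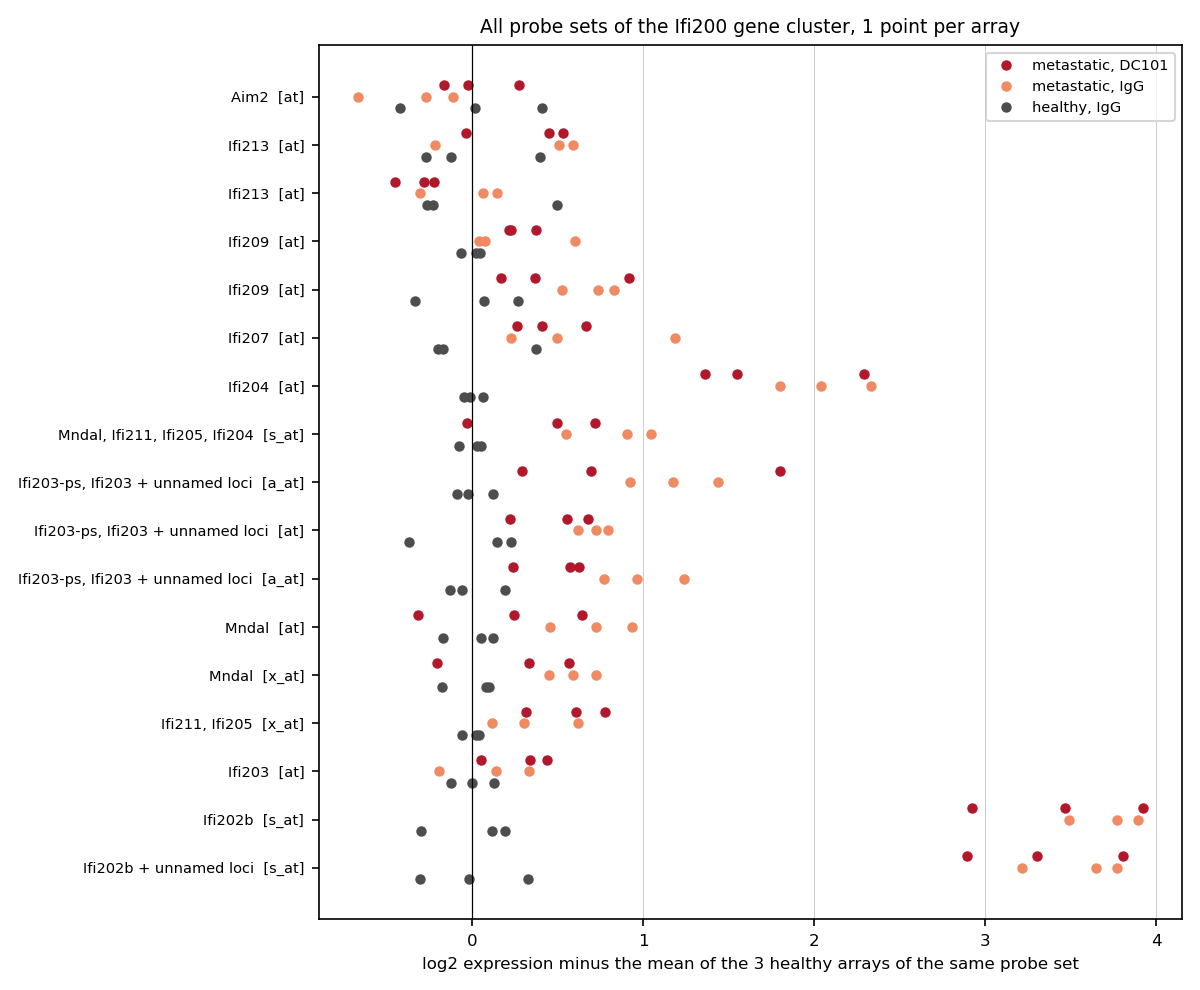
Log2 expression of each array minus the mean of the 3 healthy arrays (x axis) for the 17 probe sets of the Ifi200 cluster, in the order of the genes on the chromosome with shared sets at 1 of their genes (y axis); points are single arrays of the 3 groups. The Ifi202b probe sets lie farthest to the right, followed by Ifi204, and Aim2 and Ifi213 lie around 0.

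Of the other genes of the cluster, 4 were measured alone: Mndal, Ifi207, Ifi209 and Ifi213. Mndal, a HIN-200 gene with a pyrin domain, measured 11.16, 12.11 and 11.71 in DC101 arrays, 11.92, 12.19 and 12.41 in metastatic IgG arrays, and 11.52, 11.59 and 11.30 in healthy arrays. It was the 1 gene of the 4 called, 0.70 higher in metastatic IgG than in healthy lungs (SE 0.15, limma, adjusted p = 0.037), and the call was lost in 8 of 14 alternatives, including without each of 5 arrays. The values for Ifi209 (0.70, adjusted p = 0.060), Ifi207 (0.63) and Ifi213 (-0.03) did not pass. Healthy Ifi209 values (6.89, 7.09 and 6.49) lay near or below the first quartile of all probe sets (7.07 to 7.08). Healthy Ifi207 values (7.72, 7.18 and 7.14) were above it, some of them only just. As for Ifi204, these are differences of measured signal. With DC101, none of the 4 was called against healthy lungs, the differences being 0.19 for Mndal, 0.48 for Ifi209, 0.44 for Ifi207 and -0.32 for Ifi213. The median of the 4 was 0.67 for metastatic IgG over healthy lungs and 0.32 for DC101 over healthy lungs, beside -0.02 and -0.04 over all genes. Dimmer probe sets of the same genes differed from these values. That of Ifi213 was above healthy lungs by 0.29 with IgG and 0.31 with DC101, and that of Ifi209 by 0.24 with IgG and 0.27 with DC101. None of these was called.

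The DC101 arrays took no part in the choice of the genes, so the comparison of DC101 with IgG in metastatic lungs was tested, although the IgG arrays had been used. A gene picked for high values on the IgG arrays tends towards a negative DC101 minus IgG difference, so the sign of the Ifi202b value below is not read. No chosen gene was called, and 0 of 18193 genes were (0.0%). At an unadjusted p under 0.05 there were 1209 genes, or 6.65%, with none of the chosen genes among them, and the lowest adjusted p of any gene was 0.403. Ifi202b was 0.28 lower with DC101 (SE 0.25, 95% interval -0.86 to 0.30, limma, adjusted p = 0.844). Ifi204 was 0.32 lower (SE 0.25, interval -0.92 to 0.27, adjusted p = 0.825). On its own probe set Ifi203 was 0.18 higher with DC101 (interval -0.21 to 0.58, adjusted p = 0.853), and Aim2 was 0.38 higher (SE 0.18, interval -0.04 to 0.80, adjusted p = 0.750). The intervals leave room for a lower Ifi202b level of up to 0.86 on the log2 scale, so equal levels were not shown.

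These estimates moved with single arrays. Among the DC101 arrays, replicate 1 was the lowest in 12 of 17 cluster probe sets (70.6%), while it was the lowest in 29.2% of all genes. The other groups also had an array that was often the lowest. It was metastatic IgG replicate 1 in 64.7% of the cluster probe sets (32.4% of all genes) and healthy replicate 3 in 70.6% (33.8% of all genes). Without DC101 replicate 1 the difference between DC101 and IgG was -0.02 for Ifi202b and -0.14 for Ifi204. Without DC101 replicate 2, the highest array for both genes, it was -0.52 for Ifi202b and -0.60 for Ifi204. Across the 17 probe sets 12 were lower with DC101 and 1 of them without overlap, a shared Ifi203 probe set that was 0.51 lower (unadjusted p = 0.018, adjusted p = 0.755). Non-overlap in that direction held for 6.95% of all genes.

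**Figure D3:**
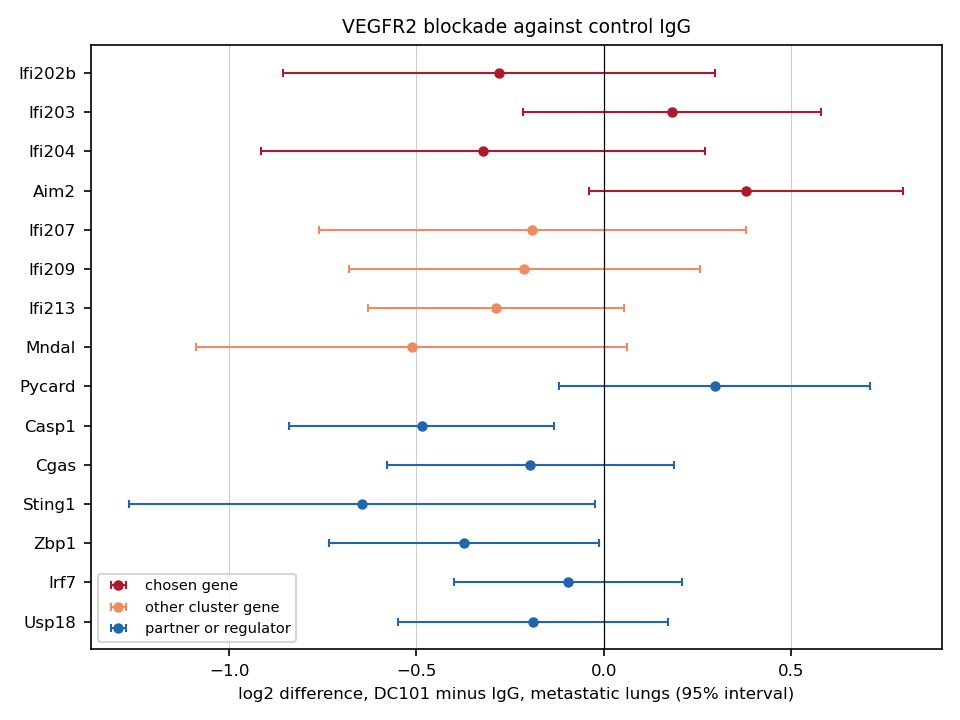
Log2 difference between DC101 and IgG in metastatic lung ECs (x axis) with 95% intervals from limma, for 4 chosen genes, 4 other cluster genes and 7 partner or regulator genes (y axis). The intervals of all 4 chosen genes include 0, with Ifi202b at -0.28 and Aim2 at 0.38, while the intervals, which are not adjusted for the number of genes, exclude 0 for Casp1, Sting1 and Zbp1.

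The partners through which AIM2 acts showed no common shift. Pycard measured 11.08, 10.80 and 10.55 in DC101 arrays, 10.75, 10.52 and 10.28 in metastatic IgG arrays, and 10.94, 10.83 and 10.50 in healthy arrays, so its groups overlapped. Casp1 gave 9.68, 9.62 and 9.23 in DC101 arrays, 10.16, 9.93 and 9.90 in metastatic IgG arrays, and 9.56, 9.74 and 9.09 in healthy arrays. It was 0.53 higher in metastatic IgG than in healthy lungs (adjusted p = 0.138) and 0.49 lower with DC101 than with IgG (adjusted p = 0.741), in both cases without overlap and without passing the test. Of 12 measured inflammasome genes, 2 rose in metastatic IgG over healthy lungs (3.93% of all genes) and none fell, with a median of 0.00. They were Zbp1, a sensor of Z-form nucleic acid that triggers cell death (2.22, adjusted p = 0.000262), and Casp4, the caspase that binds lipopolysaccharide in the cytosol (0.86), whose call was lost in 3 of 14 alternatives. With DC101, Zbp1 rose over healthy lungs by 1.85 (adjusted p = 0.00213), the only one of the 12, where 1.58% of all genes rose.

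Among 18 measured genes of cytosolic DNA sensing outside the family, 1 rose in metastatic IgG over healthy lungs, a share near the 3.93% of all genes, and the median was -0.01. It was Sting1, which relays signals from cGAS and from IFI16-like sensors to interferon genes. Its expression was 9.64, 10.68 and 9.73 in DC101 arrays, 10.81, 10.60 and 10.58 in metastatic IgG arrays, and 8.98, 9.06 and 8.85 in healthy arrays. Sting1 rose by 1.70 in metastatic IgG over healthy lungs (SE 0.11, adjusted p = 0.00050), and a second Sting1 probe set differed by 1.44. With DC101 it was 1.06 above healthy lungs (adjusted p = 0.102), with replicate 2 near the IgG arrays and the others between the groups. Between DC101 and IgG the difference was -0.65 (unadjusted p = 0.044, adjusted p = 0.741). Cgas, the enzyme that makes the STING ligand, was 0.17 above healthy lungs in metastatic IgG and -0.02 in DC101, and neither passed. A second Cgas probe set differed from healthy lungs by 0.56 in metastatic IgG and 0.14 in DC101, also without passing.

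Interferon-responsive genes outside the cluster were higher in the same arrays. Of 18 measured antiviral interferon-stimulated genes, 15 rose in metastatic IgG over healthy lungs (3.93% of all genes) and none fell, with a median of 1.19. Among them were Rsad2, which encodes the antiviral enzyme viperin (3.56), Mx1, a GTPase that restricts viruses (3.02), Ifit2, an RNA-binding inhibitor of translation (2.78), and Oas2, an oligoadenylate synthetase (2.26). With DC101, 15 of 18 rose over healthy lungs (1.58% of all genes) with a median of 1.18, led by Rsad2 (3.32), Mx1 (2.82), Ifit2 (2.40) and Ifit3 (1.93). This count was 1 of 18 without variance moderation and 7 without healthy replicate 1. None of the 18 was called between DC101 and IgG, where the median was -0.11. Among the DC101 arrays, replicate 2 was the highest in 16 of the 18 genes.

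Among genes of interferon signaling, Irf7, the transcription factor that amplifies interferon output, rose in metastatic IgG over healthy lungs by 1.95 and in DC101 over healthy lungs by 1.85. Usp18, which restrains interferon receptor signaling, rose by 2.07 in metastatic IgG and by 1.89 in DC101. Irf1 was lower than in healthy lungs by both comparisons (log2 differences -0.48 with IgG and -0.52 with DC101, called in both, where 2.6% of all genes were lower with IgG and 0.835% with DC101), and these calls were lost in 6 and 8 of 13 alternatives. These 3 were the only genes called against healthy lungs among 18 ligands, receptors and transducers, of which the interferon gene Ifnb1 stayed between 6.80 and 7.09 on all 9 arrays, near the first quartile of the arrays (7.07 to 7.08).

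The profile nearest to that of Ifi202b over the 9 arrays, by the root mean square difference after each gene was centred on its own mean, belonged to AA467197, at 0.167 on the log2 scale. Rsad2 followed at 0.196, Ildr2 at 0.350, Mx1 at 0.383 and Ntrk2 at 0.449, against a median of 1.74 over all other genes. The measure rewards an equal size of difference between the groups, and the 9 arrays share that group structure. For Ifi204, examined after its values had been seen, the nearest were Zbp1 at 0.167 and Usp18 at 0.176, with a median of 0.967.

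**Figure D4:**
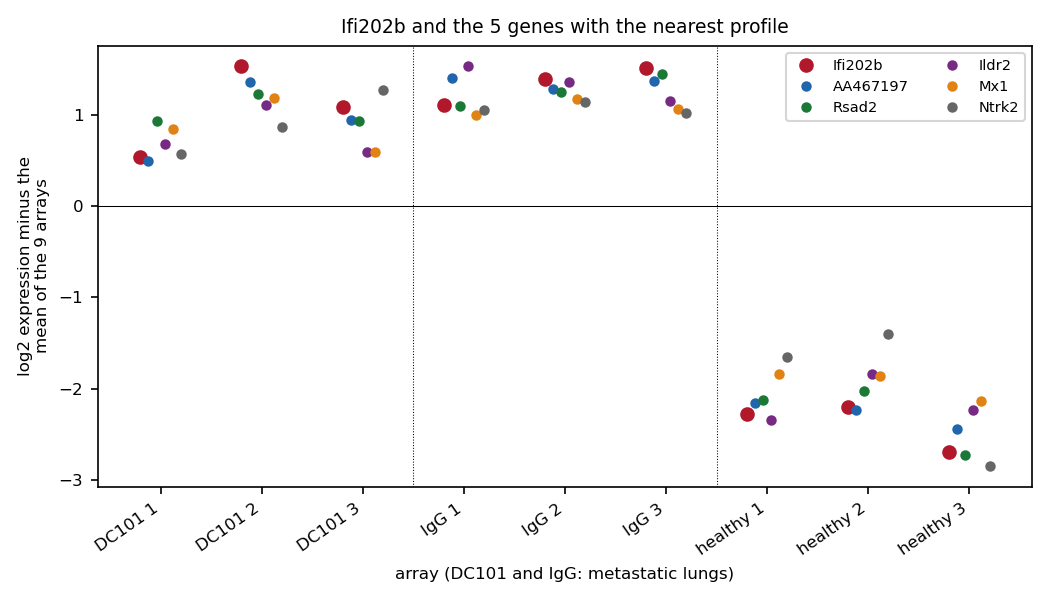
Log2 expression minus the mean over the 9 arrays (y axis) of Ifi202b and the 5 genes nearest to it, for each array of the 3 groups (x axis); points are single arrays. All 6 genes lie above 0 on the 6 metastatic arrays and below 0 on the 3 healthy ones, and DC101 replicate 1 is the lowest metastatic array of Ifi202b.

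Genes of the Ifi200 family are also expressed by macrophages, so markers of cells that the sort should exclude were read beside the family. Of 16 macrophage and monocyte markers, 4 rose in metastatic IgG over healthy lungs (3.93% of all genes), and 0 were called between DC101 and healthy lungs or between DC101 and IgG. Those that rose were the complement genes C1qa (1.54), C1qb (1.38) and C1qc (0.70), and Mrc1 (0.73). The summed level of the list (log2 of the sum) was 14.40 to 14.82 in DC101 arrays, 14.41 to 14.52 in metastatic IgG arrays and 14.59 to 14.75 in healthy arrays. Brighter genes weigh more in this sum, and Lyz1, Mertk and Lyz2 were the brightest, with healthy means of 12.4 to 13.1. The sum therefore says little on dimmer markers such as C1qa. The mean log2 level, in which all genes of the list count equally, was 8.98 to 9.38 in DC101 arrays. It was 9.19 to 9.30 in metastatic IgG arrays and 9.03 to 9.16 in healthy arrays. Ptprc, which encodes CD45, averaged 8.25 ± 0.36 in DC101, 8.33 ± 0.25 in metastatic IgG and 9.01 ± 0.24 in healthy lungs (SD, n = 3 each). On this probe set its arrays in both metastatic groups were below the healthy ones, the opposite direction to Ifi202b and Ifi204, without passing the test. A second Ptprc probe set went the other way, by 0.39 for metastatic IgG and 0.11 for DC101 over healthy lungs, also without passing. Csf1r averaged 8.52 in DC101, 9.17 in metastatic IgG and 9.27 in healthy lungs, and Adgre1 averaged 7.55 in DC101, 7.65 in metastatic IgG and 7.37 in healthy lungs. C1qa averaged 8.97 in DC101, 9.14 in metastatic IgG and 7.60 in healthy lungs, which is the direction of Ifi202b and Ifi204. Of 9 neutrophil markers Lcn2 alone was called higher in metastatic IgG than in healthy lungs (1.36, where 3.93% of all genes were). All 9 were higher on average, with a median of 0.37, beside -0.02 over all genes. With DC101, 6 of the 9 were higher than in healthy lungs, with a median of 0.23. Their summed levels were 11.29 to 11.73 in DC101, 11.48 to 11.86 in metastatic IgG and 10.88 to 11.22 in healthy arrays. Among 9 lymphocyte and dendritic markers, Siglech was 0.60 lower in metastatic IgG than in healthy lungs and called, as were 2.6% of all genes. The part of such cells in the family's differences was not tested.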

How the data were processed

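Per the labels and methods, 500 pg of RNA per sample was amplified (3′ IVT Pico kit) and hybridised to GeneChip Mouse Genome 430 2.0 arrays, and the authors normalised the arrays by RMA in Chipster 3.8.0. The deposited table holds 1 log2 value per probe set and array. The log base is not written in it and was taken from RMA. Detection calls and scan batches were not used here. Probe sets took gene names from the platform annotation: 34945 had 1 symbol, 932 several and 9160 none, and 64 controls were left out. Each gene was represented by its 1-symbol probe set of highest mean.

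Groups came from the labels. Pairs of groups (6 arrays) were compared by limma 3.58.1 in R 4.3.3 (lmFit, eBayes, two-sided), and p-values were adjusted by Benjamini-Hochberg over all 18193 genes, or over 45037 probe sets for single probe sets. The threshold for a call was an adjusted p of 0.05. In counts of list genes, those said to rise or fall are the ones called. The procedure was tested on simulated data with noise independent between genes. Shifts of many genes on a single array were not simulated, so that test does not cover them. With 3 arrays a group, the number of arrays limits the precision.

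The chosen genes and the lists were selected with earlier results of these data known. Named were the chosen genes, all measured cluster genes, Pycard, Casp1, Cgas and Sting1, at most 4 called genes per other pathway list with the largest differences, the 5 nearest profiles and 4 macrophage markers, and other called marker genes were named after their values were seen. Alternatives were other probe set rules, variance models, a brightness filter, a replicate block and leaving out each array. Promoters came from RefSeq (GRCm38.p6). The Ifi204 promoter and proteins were not analysed here.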

Additional observations from a re-analysis of the deposited data

How the results depend on the processing

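Ifi205 had no probe set of its own. Each of the other 4 chosen genes had 1, so its log2 difference could move only on leaving out arrays and on admitting probe sets of several genes. On leaving out arrays, the difference between metastatic IgG and healthy lungs was 3.57 to 3.83 for Ifi202b, 1.92 to 2.18 for Ifi204, -0.03 to 0.24 for Ifi203 and -0.56 to -0.15 for Aim2. Between DC101 and healthy lungs it was 3.19 to 3.69 for Ifi202b and 1.45 to 1.92 for Ifi204, and between DC101 and IgG -0.52 to -0.02 for Ifi202b and -0.60 to -0.14 for Ifi204. Admitting probe sets of several genes, an alternative chosen after seeing the data, replaced the Ifi203 and Ifi204 probe sets by shared ones: between DC101 and IgG, Ifi203 turned to -0.23, against healthy lungs Ifi203 gave 0.71 for metastatic IgG and 0.48 for DC101, and Ifi204 gave 0.83 for metastatic IgG and 0.39 for DC101.

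Of the chosen genes, 2 were called in metastatic IgG over healthy lungs. The count was 1 without probe set types that can cross-hybridise, where Ifi202b was not measured, and 1 with bright genes only, where Ifi204 was not tested. It was 3 of 5 with probe sets of several genes admitted, where 1 shared probe set stood for both Ifi204 and Ifi205. It was 2 whichever array was left out. In DC101 over healthy lungs it was 2, and became 1 without cross-hybridising types, 1 with bright genes only, 1 with probe sets of several genes admitted, 0 without variance moderation, and 1 to 2 on leaving out arrays. Between DC101 and IgG it was 0 throughout, and the adjusted p of Ifi202b ranged from 0.454 to 0.991, of Ifi204 from 0.397 to 0.966 and of Aim2 from 0.656 to 0.954.

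Of the genes in the pathway lists, 22 were called in metastatic IgG over healthy lungs (16 to 26 over the alternatives) and 19 in DC101 over healthy lungs, where the count was 2 without variance moderation and 10 to 15 on leaving out arrays, 10 of them without healthy replicate 1. Of all genes, 1188 were called in metastatic IgG over healthy lungs, against 376 without variance moderation and 556 to 759 on leaving out arrays. The 440 called in DC101 over healthy lungs became 14 without variance moderation, 662 with all 9 arrays in 1 fit and 110 to 361 on leaving out arrays. The cause of these shifts was not tested.

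Samples with the same replicate number showed little common deviation from their group means (correlations from -0.05 to 0.08). With group means of 3 arrays this check is weak, so pairing or shared processing by number was not excluded. With the replicate number as a block 2 chosen genes were called in metastatic IgG over healthy lungs (689 of all genes), 2 in DC101 over healthy lungs (247 of all genes) and 0 between DC101 and IgG (0 of all genes), so no call of a chosen gene changed.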
